A study of Mus musculus with 20 samples.

Results

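The Wnt signalling components described here are 63 genes of the Wnt pathway, of the 9129 genes measured by the expression arrays in sorted osteoblastic cells of mouse bone. They were taken from the array annotation by gene symbol alone, as the Wnt ligands and their secretion factors, the Frizzled, Lrp and Ror receptors, the secreted inhibitors, the R-spondin and Lgr branch, the beta-catenin machinery, the Tcf and Lef factors and the planar polarity genes. They are read by 92 probe sets, and for the 20 members with several probe sets the one with the highest mean over all arrays stands for the gene. Secreted Wnt proteins bind Frizzled receptors together with the co-receptors Lrp5 and Lrp6, which stops a complex of Axin, Apc, Gsk3 and casein kinase 1 from marking beta-catenin for destruction, so that beta-catenin can act in the nucleus with Tcf and Lef factors. Other Wnts act through Ror receptors and planar polarity proteins without beta-catenin. In bone the pathway is known to drive osteoblast formation and to be held back by secreted inhibitors.

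The study sorted bone cells of untreated wild type male C57BL6 mice aged 8 weeks, freed with collagenase, into 5 groups of 4 arrays each. All groups shared the absence of blood lineage markers and of the endothelial marker CD31, and the presence of CD51, the integrin alpha-v chain. SL cells were Sca-1-low and PDGFRa-negative. AB cells were Sca-1-negative with PDGFRa and PDGFRb, B cells were Sca-1-negative with PDGFRb and without PDGFRa, and A cells were Sca-1-negative with PDGFRa and without PDGFRb. DN cells were Sca-1-negative and PDGFRa-negative. The titles of DN and SL leave the sign of PDGFRb unclear, although the code DN is that of a double-negative gate. Whether replicates are separate animals is not said in the labels. The p-values therefore cover no more than the spread among these arrays, which may be technical, and the number of arrays limits the precision.

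All levels are log2 array signals, which can be compared between groups for a gene but not between genes. Within groups, pairs of arrays had correlations of 0.951 to 0.983 over genes. Some arrays went against their gates. Ly6a, which encodes Sca-1, read 10.79, 10.30, 10.54 and 10.42 in SL, 7.09, 7.24, 8.72 and 10.05 in AB, 7.01, 7.10, 10.18 and 10.90 in B, 7.25 to 8.15 in A and 7.03 to 8.28 in DN, so that replicates 3 and 4 of AB and B were high for cells gated as Sca-1-negative. Results on AB and B are therefore also given with replicates 1 and 2 of both groups alone where that ended a call or moved a called difference by over 1.5 times. The transcript of Pdgfra read 10.10 to 10.34 in SL, above every array of the other groups, although SL was gated as PDGFRa-negative. Of 19 listed osteoblast markers 14 were measured, and their mean over genes lay between 8.69 and 8.85 on the SL arrays, 9.63 and 9.89 in AB, 9.5 and 9.89 in B, 10.02 and 10.4 in A and 9.8 and 9.97 in DN. The mean of 13 chondrocyte markers was 9.19 to 9.53 in SL, 8.45 to 9.47 in AB, 9.02 to 10.29 in B, 11.4 to 11.61 in A and 11.6 to 11.96 in DN.

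The 5 groups fell into DN and A on one side and B, AB and SL on the other for most Wnt genes with large differences. A gene is called different when its adjusted p from limma, with Benjamini-Hochberg adjustment over all 9129 genes, was under 0.05. Over the 5 groups limma's moderated F test called 47 of the 63 members (74.6%), against 50.6% of all genes. The members are those that passed the authors' filter on low signal, and a gene that passed only through its brightest group had to differ between groups, so these counts describe the members measured and support nothing further. Differences between SL and DN were called for 38 members, 23 of them higher in SL (36.5%, against 23.9% of all genes) and 15 lower (23.8%, against 21.3%). Between B and A 21 were higher in B (33.3%, against 15.1%) and 15 lower (23.8%, against 14.6%). Between AB and A 24 were higher in AB (38.1%, against 17.7%) and 14 lower (22.2%, against 15.2%). The PDGFRa gate was accompanied by few calls, with 3 members higher and 1 lower in A than in DN (4.76% and 1.59%, against 2.89% and 0.635% of all genes). Between AB and B 1 was higher and 0 were lower (1.59% and 0.0%, against 1.12% and 0.405%). These counts are from a fit that did not pair arrays of the same replicate number. Pairing them added calls in every pair, as given below. Called members were then 6 between A and DN and 42 between SL and DN. They were 37 between B and A, 39 between AB and A and 5 between AB and B. The median absolute log2 difference of the members was 0.47 for SL against DN, 0.44 for B against A and 0.43 for AB against A, beside 0.29, 0.21 and 0.22 over all genes. In sorted pools such as these, fewer cells of a type and less RNA per cell cannot be told apart.

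**Figure D1:**
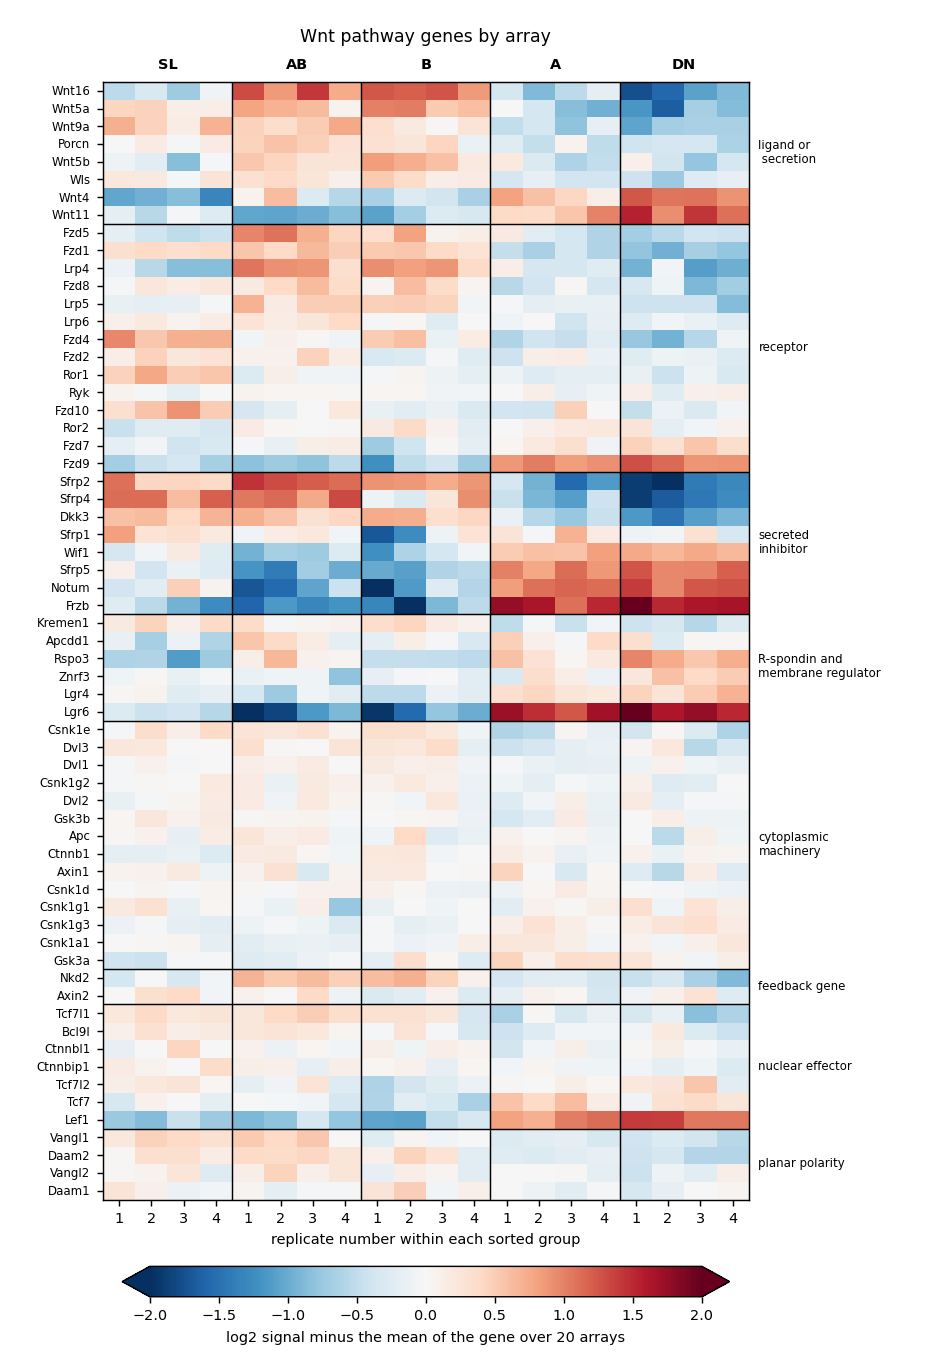
Log2 signal of the 63 Wnt pathway genes on each of the 20 arrays, shown by colour as the difference from the gene's mean over all arrays (red higher, blue lower, colours full at 2 log2 units). Columns are replicates 1 to 4 of SL, AB, B, A and DN, and rows are grouped by role. The ligands, receptors and secreted inhibitors hold most of the strong colours, and the cytoplasmic machinery is pale throughout.

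The secreted inhibitors split into a set high in SL, AB and B and a set high in A and DN. All 8 measured members differed among the 5 groups by the F test, against 50.6% of all genes. Sfrp1 did so only while SL1, B1 and B2 were kept, where SL1 stands for replicate 1 of SL and so on (adjusted p 0.062 to 0.138 without 1 of them). Sfrp2, Sfrp4 and Dkk3 were higher in SL than in DN, in B than in A and in AB than in A. Frzb, Sfrp5, Notum and Wif1 were lower in the same 3 pairs. The pairs B against A and AB against A share the A arrays, so their values are set side by side and do not support each other.

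Sfrp2 encodes a secreted Frizzled-related protein that binds Wnts in the extracellular space (chromosome 3, 83766321 to 83774316 in the deposited tables, whose genome build is not given). It read 9.97, 9.29, 9.30 and 9.26 in SL, 10.32, 10.18, 10.08 and 9.99 in AB and 9.78, 9.75, 9.62 and 9.76 in B. Sfrp2 read 8.54, 7.93, 7.33 and 7.75 in A and 6.98, 6.64, 7.47 and 7.59 in DN. The lowest array of SL, AB and B lay above the highest of A and DN. The log2 difference was 2.29 ± 0.22 for SL minus DN (SE, 4.89-fold, adjusted p = 6.53e-08), 2.26 ± 0.22 for AB minus A and 1.84 ± 0.22 for B minus A (adjusted p = 1.55e-07 and 2.87e-06). Sfrp4, a related inhibitor whose loss in humans thins cortical bone (chromosome 13, 19623175 to 19632821), read 10.77, 10.77, 10.27 and 10.86 in SL, 10.71, 10.80, 10.41 and 10.98 in AB and 9.55, 9.37, 9.90 and 10.59 in B. Sfrp4 read 9.22, 8.75, 8.55 and 9.24 in A and 7.76, 7.99, 8.23 and 8.39 in DN. It was 5.96-fold higher in SL than in DN (log2 2.57 ± 0.23, adjusted p = 1.7e-08) and 3.45-fold higher in AB than in A (log2 1.79 ± 0.23, adjusted p = 3.83e-06). The B arrays of Sfrp4 lay above all A arrays, by 0.92 ± 0.23 on average (adjusted p = 0.00401), but with replicates 1 and 2 of B and AB alone the difference was 0.52 and was not called (adjusted p = 0.0843). Dkk3, a divergent member of the Dickkopf family (chromosome 7, 112116019 to 112159057), averaged 11.06 ± 0.13 in SL, 10.98 ± 0.18 in AB and 11.04 ± 0.21 in B. Dkk3 averaged 10.01 ± 0.26 in A and 9.32 ± 0.23 in DN (SD, n = 4). Its 12 arrays of SL, AB and B lay between 10.78 and 11.23, above every A array, and every A array lay above every DN array. Dkk3 was higher by 1.74 ± 0.14 in SL than in DN, by 1.03 ± 0.14 in B than in A and by 0.97 ± 0.14 in AB than in A (adjusted p = 6.32e-09, 1.27e-05 and 1.91e-05). Most marrow stroma markers rose in the same pairs. Of 13 measured 10 were higher and 1 lower in SL than in DN. In B against A 10 were higher and 1 lower, and in AB against A 11 were higher and 0 lower. Of 13 markers of Sca-1-positive fibroblasts 10 were higher in SL than in DN, 5 were higher and 2 lower in B than in A, and 6 were higher and 2 lower in AB than in A. Of 10 pericyte markers 2 were higher and 2 lower in SL than in DN, 8 higher and 1 lower in B than in A, and 6 higher and 2 lower in AB than in A. Over all genes 23.9% were higher and 21.3% lower in SL than in DN, 15.1% and 14.6% in B than in A, and 17.7% and 15.2% in AB than in A. The part of these markers in the rises of Wnt genes was not tested.

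Frzb, the Frizzled-related protein known from cartilage (chromosome 2, 80411970 to 80447625), had the largest fall of any inhibitor in the pairs with A and DN. It read 7.53, 7.23, 6.82 and 6.51 in SL, 6.19, 6.62, 6.46 and 6.58 in AB and 6.47, 5.75, 6.87 and 7.25 in B. Frzb read 9.54, 9.41, 8.87 and 9.27 in A and 9.96, 9.27, 9.39 and 9.42 in DN, with no overlap between the first 3 groups and the other 2. It was 5.61-fold lower in SL than in DN (log2 -2.49 ± 0.26, adjusted p = 1.69e-07), 7.01-fold lower in AB than in A (log2 -2.81 ± 0.26, adjusted p = 6.76e-08) and 6.44-fold lower in B than in A (log2 -2.69 ± 0.26, adjusted p = 2.19e-07). Notum, a secreted enzyme that removes the lipid Wnts need for binding (chromosome 11, 120653788 to 120661175), read 8.30, 8.46, 9.16 and 8.75 in SL, 6.98, 7.13, 7.63 and 8.26 in AB and 6.38, 7.56, 8.42 and 8.10 in B. Notum read 9.53, 9.78, 9.85 and 9.80 in A and 10.08, 9.64, 9.93 and 9.96 in DN. It was lower at log2 differences of -2.24 ± 0.33 in AB than in A, -2.12 ± 0.33 in B than in A and -1.24 ± 0.33 in SL than in DN (adjusted p = 2.19e-05, 4.82e-05 and 0.00432). Sfrp5 averaged 5.90 ± 0.20 in SL, 5.00 ± 0.29 in AB and 5.26 ± 0.28 in B. Sfrp5 averaged 7.01 ± 0.16 in A and 7.16 ± 0.15 in DN, and no array of SL, AB or B reached the lowest array of A or DN. Its difference was -2.01 ± 0.15 for AB minus A, -1.75 ± 0.15 for B minus A and -1.27 ± 0.15 for SL minus DN (adjusted p = 6.38e-09, 6.64e-08 and 1.03e-06). Wif1, Wnt inhibitory factor 1, averaged 10.56 ± 0.23 in SL, 10.03 ± 0.28 in AB and 10.12 ± 0.50 in B. Wif1 averaged 11.30 ± 0.14 in A and 11.38 ± 0.06 in DN, with differences of -1.28 ± 0.19, -1.18 ± 0.19 and -0.82 ± 0.19 for the same 3 pairs (adjusted p = 2.03e-05, 5.71e-05 and 0.00124). Chondrocyte markers fell in the same pairs, 12 of 13 measured being lower in each of SL against DN, B against A and AB against A, and 8, 7 and 9 of 9 Schwann cell markers were lower too. Of 14 osteoblast markers 8 were lower and 2 higher in SL than in DN. In B against A 6 were lower and 1 higher, and in AB against A 4 were lower and 2 higher. Over all genes 21.3%, 14.6% and 15.2% were lower in these pairs. Within B the 4 falling inhibitors were higher in replicates 3 and 4 than in 1 and 2, by 1.29 for Notum, 0.95 for Frzb, 0.72 for Wif1 and 0.48 for Sfrp5 (log2). On B replicates 1 to 4 the chondrocyte mean read 9.02, 9.38, 10.29 and 10.13, the Sca-1-positive fibroblast mean 8.86, 8.71, 10.22 and 10.515 and the pericyte mean 9.76, 9.85, 8.87 and 8.76. Within AB the same inhibitors were higher by 0.89, 0.12, 0.31 and 0.44, and the chondrocyte mean read 8.45, 8.75, 9.38 and 9.47. The part of these cell markers in the Wnt results was not tested.

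Sfrp1, the remaining inhibitor, varied most within B, where it read 5.12, 5.57, 6.71 and 7.10, against 7.07, 6.79, 7.51 and 6.99 in A. It was lower in B than in A, at a log2 difference of -0.97 ± 0.30 (limma adjusted p = 0.0196), and at -1.75 with replicates 1 and 2 of B alone (adjusted p = 1.44e-05). The call rested on single arrays, since adjusted p was 0.0636 to 0.0905 without A3, B1 or B2. Sfrp1 averaged 7.22 ± 0.29 in SL, 6.88 ± 0.14 in AB and 6.78 ± 0.26 in DN and was not called in the other pairs, although AB lay above B with replicates 1 and 2 of both alone (log2 1.52, adjusted p = 0.00335) and without B4 (0.0473).

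**Figure D2:**
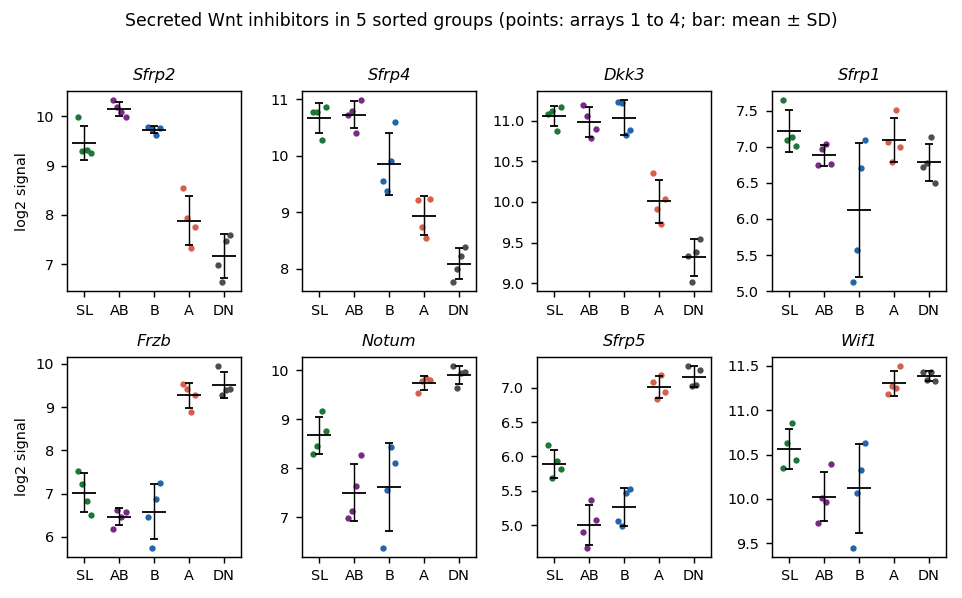
Log2 signal of the 8 secreted Wnt inhibitors in SL, AB, B, A and DN, with 1 point per array (n = 4 a group) and bars for the mean ± SD. Sfrp2, Sfrp4 and Dkk3 are high in the 3 groups on the left of each panel, and Frzb, Notum, Sfrp5 and Wif1 are high in A and DN, while B is spread widely for Sfrp1 and Notum.

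Among the 8 ligand and secretion genes, 6 were higher in B and in AB than in A and the other 2, Wnt11 and Wnt4, were lower in both. In SL against DN 5 were higher, 2 lower and Wnt5b was not called. Wnt16, a ligand known from mice to protect cortical bone (chromosome 6, 22288227 to 22298522), read 6.47, 6.68, 6.28 and 6.91 in SL, 8.30, 7.84, 8.40 and 7.73 in AB and 8.23, 8.19, 8.24 and 7.84 in B. Wnt16 read 6.64, 6.11, 6.47 and 6.81 in A and 5.23, 5.42, 5.91 and 6.11 in DN. Its AB and B arrays lay above all others, SL overlapped with A, and DN was lowest, with its highest array level with the lowest A array. Wnt16 was 3.07-fold higher in B than in A and 2.95-fold higher in AB than in A (log2 1.62 ± 0.20 and 1.56 ± 0.20, adjusted p = 4.09e-06 and 5.09e-06), and 1.89-fold higher in SL than in DN (log2 0.92 ± 0.20, adjusted p = 0.000943). Wnt5a, which acts mainly without beta-catenin, averaged 7.99 ± 0.18 in SL, 8.24 ± 0.32 in AB and 8.49 ± 0.26 in B. Wnt5a averaged 7.16 ± 0.44 in A and 6.62 ± 0.43 in DN. Its rise was 1.38 ± 0.22 for SL against DN, 1.33 ± 0.22 for B against A and 1.08 ± 0.22 for AB against A (adjusted p = 3.89e-05, 0.000103 and 0.000706). Wnt9a, a ligand of forming joints, was higher by 1.27 ± 0.15, 0.66 ± 0.15 and 0.97 ± 0.15 in the same order of pairs (adjusted p at most 0.00175). Wnt5b averaged 7.94 ± 0.37 in SL, 8.62 ± 0.14 in AB and 8.83 ± 0.29 in B. Wnt5b averaged 7.95 ± 0.35 in A and 7.90 ± 0.36 in DN. It was higher in B and AB than in A by 0.88 ± 0.20 and 0.67 ± 0.20 (limma adjusted p = 0.00239 and 0.0153), the AB call being lost without A3 at 0.0521, and SL minus DN was 0.04 ± 0.20 (adjusted p = 0.888). The general secretion factors rose in all 3 pairs. Wls, which carries lipid-bearing Wnts to the cell surface, was higher by 0.54 ± 0.12 in SL than in DN, 0.62 ± 0.12 in B than in A and 0.58 ± 0.12 in AB than in A, and Porcn, the enzyme that attaches the lipid, by 0.51 ± 0.13, 0.50 ± 0.13 and 0.73 ± 0.13 (adjusted p at most 0.00644).

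Wnt11 and Wnt4 ran the other way. Wnt11, a ligand of the branch without beta-catenin (chromosome 7, 98835112 to 98855195), read 7.52, 7.14, 7.65 and 7.44 in SL, 6.67, 6.65, 6.70 and 6.85 in AB and 6.63, 7.02, 7.43 and 7.37 in B. Wnt11 read 8.10, 8.07, 8.26 and 8.69 in A and 9.23, 8.63, 9.13 and 8.80 in DN. It was lower at log2 differences of -1.57 ± 0.18 in AB than in A, -1.51 ± 0.18 in SL than in DN and -1.17 ± 0.18 in B than in A (adjusted p = 8.5e-07, 6.99e-07 and 3.49e-05), with no overlap of arrays in any of these pairs. Wnt4, which acts in kidney and bone, read 6.33, 6.404, 6.51 and 6.06 in SL, 7.44, 7.98, 7.09 and 6.81 in AB and 6.72, 7.10, 6.998 and 6.72 in B. Wnt4 read 8.18, 7.95, 7.79 and 7.49 in A and 8.62, 8.43, 8.46 and 8.27 in DN. It was 4.35-fold lower in SL than in DN (log2 -2.12 ± 0.19, adjusted p = 2.67e-08) and 1.95-fold lower in B than in A (log2 -0.97 ± 0.19, adjusted p = 0.000633). AB overlapped with both B and A, and its call against A (log2 -0.53 ± 0.19, adjusted p = 0.0414) was lost without A1, A2, A3, AB1, AB3 or AB4 (adjusted p 0.0557 to 0.163) and with replicates 1 and 2 of B and AB alone (log2 -0.14, adjusted p = 0.632). The 250 bases before the RefSeq start of Wnt11 (GRCm38.p6, chr7:98834862-98835111, plus strand) are shown as those of a ligand called lower in 4 of the 5 pairs, and as 1 of 7 promoters, among the 41 members with one in RefSeq, that hold the core letters Tcf and Lef factors bind. The letters searched were CTTTGA or, on the other strand, TCAAAG, and the match, 50 bases before the start, is in capitals.
Wnt11: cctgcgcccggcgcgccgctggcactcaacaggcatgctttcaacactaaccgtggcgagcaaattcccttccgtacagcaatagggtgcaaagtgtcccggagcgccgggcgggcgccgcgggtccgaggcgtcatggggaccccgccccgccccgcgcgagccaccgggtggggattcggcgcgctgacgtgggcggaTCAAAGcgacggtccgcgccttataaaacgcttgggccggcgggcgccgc

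**Figure D3:**
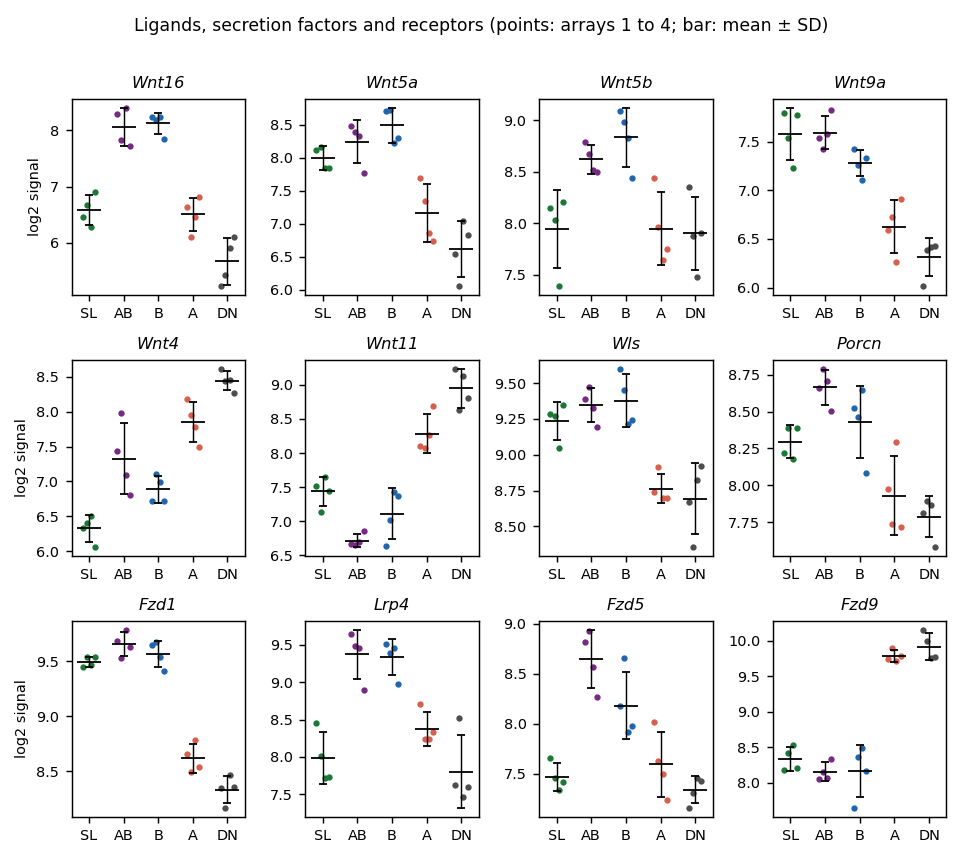
Log2 signal of 8 ligand and secretion genes and 4 receptors in SL, AB, B, A and DN, with 1 point per array (n = 4 a group) and bars for the mean ± SD. Wnt16, Lrp4 and Fzd5 stand highest in AB and B, Fzd1 is high in SL, AB and B, and Wnt4, Wnt11 and Fzd9 are high in A and DN.

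The 14 receptors held the member with the largest F statistic, Fzd1, and Fzd9, which was high where Fzd1 was low. In SL against DN 8 receptors were higher and 3 lower (57.1% and 21.4%, against 23.9% and 21.3% of all genes). In B against A 6 were higher and 2 lower (42.9% and 14.3%, against 15.1% and 14.6%). In AB against A 6 were higher and 1 lower (42.9% and 7.14%, against 17.7% and 15.2%). Fzd1, a Frizzled receptor (chromosome 5, 4753839 to 4758035), read 9.45, 9.54, 9.47 and 9.54 in SL, 9.69, 9.53, 9.79 and 9.63 in AB and 9.65, 9.67, 9.54 and 9.41 in B. Fzd1 read 8.66, 8.49, 8.78 and 8.54 in A and 8.35, 8.17, 8.47 and 8.36 in DN. The SL, AB and B arrays overlapped each other and all lay above A, and A lay above DN. Fzd1 was higher by 1.16 ± 0.09 in SL than in DN, by 1.04 ± 0.09 in AB than in A and by 0.95 ± 0.09 in B than in A (adjusted p = 3.27e-09, 2.93e-08 and 1.7e-07). By Pearson correlation of the 5 group means, a description over 5 points, the genes most like Fzd1 were Tgfb1i1 (r = 0.9998), Gal3st4 and Klhdc8b (r = 0.9992 each). The Fzd1 promoter (GRCm38.p6, chr5:4758217-4758466, minus strand) is shown for contrast, as the only promoter of a member higher in AB than in A that held the same core letters, here 242 bases before the start.
Fzd1: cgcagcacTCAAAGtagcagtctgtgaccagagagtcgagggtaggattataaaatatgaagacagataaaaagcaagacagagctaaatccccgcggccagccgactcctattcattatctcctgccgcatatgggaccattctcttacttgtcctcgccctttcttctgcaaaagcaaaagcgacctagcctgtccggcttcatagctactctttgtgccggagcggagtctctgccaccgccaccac

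Fzd9, a Frizzled needed for normal bone formation in mice (chromosome 5, 135248938 to 135251230), read 8.19, 8.43, 8.53 and 8.21 in SL, 8.06, 8.16, 8.06 and 8.34 in AB and 7.65, 8.36, 8.49 and 8.17 in B. Fzd9 read 9.74, 9.90, 9.71 and 9.78 in A and 10.15, 10.00, 9.75 and 9.77 in DN, with a clear gap between the first 3 groups and the other 2. It was 3.09-fold lower in AB than in A, 3.06-fold lower in B than in A and 2.99-fold lower in SL than in DN (log2 -1.63 ± 0.14, -1.61 ± 0.14 and -1.58 ± 0.14, adjusted p = 4.38e-08, 1.02e-07 and 3.07e-08). Some receptors differed in 1 kind of pair. Lrp4, which binds sclerostin on bone cells, averaged 7.98 ± 0.35 in SL, 9.37 ± 0.33 in AB and 9.33 ± 0.24 in B. Lrp4 averaged 8.38 ± 0.23 in A and 7.80 ± 0.49 in DN. It was higher in AB and B than in A by 0.99 ± 0.22 and 0.95 ± 0.22 (limma adjusted p = 0.00141 and 0.00228), while SL minus DN was 0.18 ± 0.22 (95% interval -0.28 to 0.64, adjusted p = 0.542). Fzd5 likewise was higher by 1.05 ± 0.17 in AB and 0.59 ± 0.17 in B than in A (adjusted p = 7.9e-05 and 0.0138, the B call being lost without A4 or B2 at 0.059 to 0.0628), with SL minus DN at 0.13 ± 0.17 (95% interval -0.23 to 0.49). Ror1, a receptor kinase for Wnt5a, read 7.37, 7.68, 7.39 and 7.46 in SL, 6.63 to 7.02 in AB, 6.72 to 6.97 in B, 6.65 to 6.80 in A and 6.48 to 6.80 in DN, so SL lay above all other arrays. It was higher in SL than in DN by 0.81 ± 0.10 (limma adjusted p = 1.23e-06), and Fzd10 by 0.81 ± 0.17 (adjusted p = 0.000538), while AB and B did not differ detectably from A in either gene. Fzd4, the receptor that also takes the ligand Norrin, was higher in SL than in DN by 1.32 ± 0.17 and in B than in A by 0.70 ± 0.17 (limma adjusted p = 1.96e-06 and 0.00298), at signals below an intensity of 100 on at least 1 array of every group. Fzd8 rose by 0.63 ± 0.17, 0.59 ± 0.17 and 0.71 ± 0.17 in SL against DN, B against A and AB against A (adjusted p = 0.00413, 0.0109 and 0.00251). Fzd7 was lower in SL than in DN, at a log2 difference of -0.66 ± 0.13 (limma adjusted p = 0.00044) and in B than in A at -0.44 ± 0.13 (limma adjusted p = 0.0163), the second of which became -0.68 with replicates 1 and 2 of B alone and was not called without A3 or B1 (adjusted p 0.0559 to 0.0783). Lrp5 and Lrp6 are the co-receptors that pair with Frizzleds. Lrp5 was higher by 0.59 ± 0.13 in AB than in A and 0.47 ± 0.13 in B than in A (adjusted p = 0.00144 and 0.00924) and by 0.39 ± 0.13 in SL than in DN (adjusted p = 0.0192, but 0.0531 to 0.0861 without DN4 or SL4), and Lrp6 by 0.43 ± 0.09 in AB than in A and 0.31 ± 0.09 in SL than in DN (adjusted p = 0.00111 and 0.00959). Without every replicate 4 the SL against DN calls of Lrp6 and Fzd8 were lost (adjusted p = 0.0783 and 0.0531). Fzd2 was higher in SL than in DN by 0.47 ± 0.12 and Ror2 lower at -0.34 ± 0.11 (limma adjusted p = 0.00342 and 0.0202, Ror2 reaching 0.0509 to 0.079 without DN1, DN4 or SL1). Ryk, a Wnt receptor of the kinase-like type, was called in no pair.

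The R-spondin, Lgr and membrane regulator genes were lower in most calls. R-spondins raise the number of Frizzled receptors at the cell surface, and the group also holds the membrane regulators Znrf3, Kremen1 and Apcdd1. Of these 6 members 4 were lower and 1 higher in SL than in DN (66.7% and 16.7%, against 21.3% and 23.9% of all genes). In B against A 3 were lower and 1 higher (50.0% and 16.7%, against 14.6% and 15.1%). In AB against A 2 were lower and 1 higher (33.3% and 16.7%, against 15.2% and 17.7%). Kremen1 was the member called higher in each of these pairs. Lgr6, a receptor for R-spondins (chromosome 1, 134983301 to 135105276), had the largest difference of all 63 members. It read 7.54, 7.38, 7.42 and 7.23 in SL, 5.62, 5.98, 6.66 and 6.91 in AB and 5.87, 6.26, 7.03 and 6.82 in B. Lgr6 read 9.54, 9.29, 9.05 and 9.49 in A and 9.81, 9.42, 9.57 and 9.32 in DN. Every SL, AB and B array lay below every A and DN array, and every AB and B array lay below every SL array. Lgr6 was 8.28-fold lower in AB than in A, 7.19-fold lower in B than in A and 4.4-fold lower in SL than in DN (log2 -3.05 ± 0.25, -2.85 ± 0.25 and -2.14 ± 0.25, adjusted p = 1.41e-08, 7.12e-08 and 6.99e-07). Within AB and B its level was higher in replicates 3 and 4 than in 1 and 2, by 0.99 and 0.86. Lgr4, the related receptor, was lower at log2 differences of -0.64 ± 0.13, -0.64 ± 0.13 and -0.55 ± 0.13 in the same 3 pairs (adjusted p = 0.000794, 0.000911 and 0.00201). Kremen1, a receptor for Dickkopf proteins, was higher by 0.67 ± 0.13 in SL than in DN and 0.52 ± 0.13 in B than in A (adjusted p = 0.000205 and 0.00367). Its call in AB against A (log2 0.38 ± 0.13, adjusted p = 0.0247) was lost without A1, A3 or AB1 (adjusted p 0.0756 to 0.0998) and with replicates 1 and 2 of B and AB alone (0.0585). Znrf3, the ligase that R-spondins clear from the membrane, was lower in SL than in DN, at a log2 difference of -0.49 ± 0.15 (limma adjusted p = 0.0118). Its dimmer probe set differed by -0.29 in that pair and was not called (limma adjusted p = 0.215 over all probe sets). With the mean of all probe sets the F test of Znrf3 was not passed (0.0637), while the SL against DN call was kept. Apcdd1, a membrane inhibitor of the pathway, was called in none of the pairs, but SL minus DN lay near the threshold at -0.41 ± 0.17 (adjusted p = 0.0588) and passed without AB4, DN2, SL1 or SL3 (0.0272 to 0.0421), after quantile normalization (0.0409) and with replicates 1 and 2 of B and AB alone (0.0458). It also passed there with arrays of the same replicate number paired (0.0376).

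Rspo3, a secreted R-spondin, was the only member called, without the replicate block, between AB and B and in the test of whether the PDGFRa difference depended on the PDGFRb gate. It read 5.33, 5.35, 4.83 and 5.24 in SL, 6.07, 6.62, 6.04 and 5.999 in AB and 5.47, 5.47, 5.45 and 5.42 in B. Rspo3 read 6.54, 6.23, 5.98 and 6.14 in A and 6.93, 6.69, 6.49 and 6.67 in DN. AB and A overlapped, and all their arrays lay above those of B. Rspo3 was higher in AB than in B by 0.73 ± 0.15 (limma adjusted p = 0.00947) and lower in B than in A, at a log2 difference of -0.77 ± 0.15 (limma adjusted p = 0.000406), while AB minus A was -0.04 ± 0.15 (95% interval -0.35 to 0.26) and A minus DN was -0.47 ± 0.15 (adjusted p = 0.087). With the replicate block A minus DN passed (adjusted p = 0.0266). The difference between the PDGFRa contrasts, AB minus B less A minus DN, was 1.20 ± 0.21 (adjusted p = 0.0084), a contrast called for 0.668% of all genes. Wnt4 missed the threshold in this contrast (1.03 ± 0.27, adjusted p = 0.0865) but passed without AB4 (0.0237), with replicates 1 and 2 of B and AB alone (0.0225) and with the replicate block (0.00905), and Dkk3 (-0.74 ± 0.20, 0.0942) passed with the block (0.0209). Rspo3 was lower in SL than in DN, at a log2 difference of -1.50 ± 0.15 (adjusted p = 6.82e-08). Rspo3 is a dim probe set. Every SL, AB, B and A array lay below an intensity of 100 and 3 of the 4 DN arrays above it, so the AB against B difference was measured wholly on signals under that level and a filter there leaves the gene untested. The AB against B call was lost with replicates 1 and 2 alone (log2 0.87, adjusted p = 0.0597). No single array left out ended either call. With the replicate number as a block, since AB and B replicates of a number deviated together, 4 further members were higher in AB than in B. These were Sfrp4 (log2 0.87 ± 0.23 without the block at adjusted p = 0.0647, and 0.00966 with it), Vangl1 (0.42 ± 0.11, 0.0644 and 0.0207), Fzd2 (0.40 ± 0.12, 0.138 and 0.0255) and Lrp6 (0.33 ± 0.09, 0.0969 and 0.0434). Sfrp4 was also called at 0.00349 without B4, and Vangl1 at 0.00265 without AB4. AB and A replicates of a number deviated together too, and the block added 1 call between them, Fzd2 (log2 0.27 ± 0.12, adjusted p = 0.0933 without and 0.0385 with the block). Of 13 marrow stroma markers 9 were also higher in AB than in B (against 1.12% of all genes), their mean lying between 9.91 and 10.41 in AB and 8.86 and 9.2 in B, and their part in these results was not tested.

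The cytoplasmic machinery that controls beta-catenin had small differences, with a median absolute log2 difference of 0.15 for SL against DN, 0.14 for B against A and 0.19 for AB against A. Of its 14 members the F test called 4 (28.6%, against 50.6% of all genes), namely Csnk1g3, Csnk1e, Gsk3a and Dvl3. In AB against A 3 were higher and 3 lower (21.4% each, against 17.7% and 15.2% of all genes). In B against A 3 were higher and 1 lower (21.4% and 7.14%, against 15.1% and 14.6%). In SL against DN 1 was higher and 1 lower (7.14% each, against 23.9% and 21.3%). Ctnnb1, which encodes beta-catenin, averaged 10.00 ± 0.05 in SL, 10.28 ± 0.11 in AB and 10.29 ± 0.14 in B. Ctnnb1 averaged 10.20 ± 0.13 in A and 10.22 ± 0.11 in DN. Its differences were -0.21 ± 0.09 for SL minus DN (95% interval -0.40 to -0.02), 0.09 ± 0.09 for B minus A (-0.10 to 0.28) and 0.08 ± 0.09 for AB minus A (-0.11 to 0.27), none of them called (adjusted p = 0.0653, 0.507 and 0.564), although SL minus DN passed without DN2 (adjusted p = 0.0297), after quantile normalization (0.0415) and with an intensity trend (0.0495). SL minus DN of Ctnnb1 also passed with the replicate block (0.0469). The scaffold genes Apc and Axin1 and the kinase gene Gsk3b were not called in any pair, with group means between 8.56 and 8.80 for Apc, 8.36 and 8.69 for Axin1 and 9.64 and 9.91 for Gsk3b. With 1 array left out, Axin1 in SL against DN passed without DN3 (0.0367) and Gsk3b in AB against A without A3 (0.0228). Gsk3a, the other Gsk3 gene, was lower in AB than in A, at a log2 difference of -0.46 ± 0.13 (limma adjusted p = 0.00887), without overlap of arrays. Csnk1e, a casein kinase 1 gene, was higher by 0.51 ± 0.15 in SL than in DN, 0.53 ± 0.15 in AB than in A and 0.50 ± 0.15 in B than in A (adjusted p = 0.00882, 0.0104 and 0.0161, the last being 0.0503 to 0.0658 without A1, A2 or B1, and the SL call 0.095 without every replicate 4). Its relative Csnk1g3 was lower in SL than in DN, at a log2 difference of -0.37 ± 0.08 (limma adjusted p = 0.00127) and in AB than in A at -0.28 ± 0.08 (limma adjusted p = 0.0134, but 0.0547 to 0.0549 without A2 or AB4 and 0.149 with replicates 1 and 2 of B and AB alone). Dvl3, a Dishevelled gene that passes the receptor signal on, was higher in B and AB than in A by 0.43 ± 0.15 and 0.42 ± 0.15 (limma adjusted p = 0.0315 and 0.032), calls lost for B without A1, A2, B1, B2 or B3 (adjusted p 0.0671 to 0.101) and for AB without A1, A2, AB1 or AB4 (0.0744 to 0.0962) and with replicates 1 and 2 of B and AB alone (0.0777). The F test of Dvl3 was not passed when any of 12 arrays was left out (0.0514 to 0.111). Csnk1g3 in B against A (log2 -0.23 ± 0.08, adjusted p = 0.0428) and Dvl1 in B and in AB against A (0.21 ± 0.08 and 0.22 ± 0.08, 0.0478 and 0.0398) rested on single arrays, and all 3 calls were lost with replicates 1 and 2 of B and AB alone (0.104, 0.0514 and 0.0953). Csnk1g3 reached 0.0514 to 0.143 without A1, A2, A3, B1, B2, B3, AB1 or SL1. Dvl1 in B reached 0.051 to 0.137 without any array other than A1, B4, AB4, DN2 and DN4, and in AB 0.065 to 0.105 without A2, A3, A4, AB1, AB2 or AB3. Its dimmer probe set differed by 0.43 in AB against A, 0.32 in SL against DN and 0.30 in B against A (limma adjusted p = 0.0145, 0.049 and 0.0898 over all probe sets). With the mean of all probe sets the F test of Dvl1 was passed (0.0157). Csnk1a1 was lower in AB than in A, at a log2 difference of -0.30 ± 0.09 (limma adjusted p = 0.0136, and 0.053 with replicates 1 and 2 of B and AB alone). Dvl2, Csnk1d, Csnk1g1 and Csnk1g2 were called in no pair. A dimmer Csnk1d probe set differed in the authors' deposited table, which sets DN over SL (log2 0.70, q = 0.0003022), A over B (0.64, q = 0.0034367) and A over AB (0.61, q = 0.0043227). Fitted over all probe sets it was lower in SL, B and AB in these pairs too (limma adjusted p = 0.000296, 0.00128 and 0.0017). With the mean of all probe sets Csnk1d was lower in B and in AB than in A (0.00753 and 0.0254).

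At the nuclear end Lef1 showed the largest difference of the 7 effectors. Lef1, a transcription factor that works with beta-catenin (chromosome 3, 131110471 to 131224356), read 7.62, 7.50, 7.92 and 7.63 in SL, 7.46, 7.56, 8.01 and 7.58 in AB and 7.31, 7.29, 7.89 and 8.05 in B. Lef1 read 9.16, 9.07, 9.39 and 9.49 in A and 9.77, 9.75, 9.42 and 9.42 in DN. The lowest A or DN array was about 1 log2 unit above the highest array of the other 3 groups. Lef1 was 3.78-fold lower in SL than in DN (log2 -1.92 ± 0.17, adjusted p = 1.72e-08), 3.08-fold lower in AB than in A (log2 -1.62 ± 0.17, adjusted p = 3.1e-07) and 3.13-fold lower in B than in A (log2 -1.64 ± 0.17, adjusted p = 4.42e-07). Its relatives did not all follow. Tcf7 was lower in B and AB than in A, at -0.87 ± 0.13 and -0.54 ± 0.13 (limma adjusted p = 4.52e-05 and 0.00398, the AB call being lost with replicates 1 and 2 of B and AB alone at 0.0555). In SL against DN Tcf7 lay near the threshold at -0.32 ± 0.13 (adjusted p = 0.0602). It passed there without DN1, A4 or SL2 (0.0203 to 0.0489), with the replicate block (0.0213) and with the mean of all probe sets (0.0135). Its dimmer probe set differed by -0.34 (0.0258 over all probe sets). Tcf7l1, often a repressor of Wnt targets, was higher by 0.74 ± 0.16 in SL than in DN and 0.63 ± 0.16 in AB than in A (adjusted p = 0.000898 and 0.00482). With replicates 1 and 2 of B alone it was also higher in B than in A (log2 0.58, adjusted p = 0.0283). Tcf7l2 lay at the threshold in B against A, at a log2 difference of -0.38 ± 0.14 with adjusted p = 0.0502, and at -0.53 with replicates 1 and 2 of B alone (0.018). It passed there with the replicate block too (0.0214). Of the other nuclear genes Ctnnbip1, an inhibitor of beta-catenin, was higher in SL than in DN by 0.31 ± 0.10 (limma adjusted p = 0.0129, 0.0618 without SL4 and 0.189 without every replicate 4). Its dimmer probe set differed by 0.68 in that pair, 0.50 in AB against A and 0.38 in B against A (adjusted p = 0.000534, 0.00948 and 0.0497 over all probe sets). For Ctnnbip1 the choice of probe set thus changed the calls. The co-activator gene Bcl9l was higher in AB than in A by 0.38 ± 0.13 (limma adjusted p = 0.0307, and 0.0615 to 0.107 without A1, A2, AB1, AB2 or AB3, and 0.0513 with replicates 1 and 2 of B and AB alone). In SL against DN Bcl9l lay near the threshold (log2 0.32 ± 0.13, adjusted p = 0.0536) and passed with the replicate block (0.0339). Ctnnbl1 was called in no pair.

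The 2 members grouped here as feedback genes, Axin2 and Nkd2, differed from each other. Axin2, a Wnt target used widely as a readout of beta-catenin activity, averaged 6.87 ± 0.23 in SL, 6.79 ± 0.21 in AB and 6.53 ± 0.18 in B. Axin2 averaged 6.599 ± 0.20 in A and 6.72 ± 0.23 in DN. It was not called in any pair, with SL minus DN at 0.15 ± 0.14 (95% interval -0.15 to 0.45), AB minus A at 0.19 ± 0.14 (-0.11 to 0.49) and B minus A at -0.07 ± 0.14 (-0.37 to 0.23). The F test of Axin2 gave adjusted p = 0.231, and 0.0101 with the replicate block. The B and A means of Axin2 lay below an intensity of 100. The lack of calls on so dim a probe set does not show equal beta-catenin activity. Nkd2, which restrains Dishevelled, read 8.08, 8.45, 8.11 and 8.38 in SL, 9.12, 8.96, 9.08 and 8.91 in AB and 9.05, 9.14, 8.88 and 8.52 in B. Nkd2 read 8.10, 8.21, 8.22 and 8.07 in A and 7.99, 8.12, 7.78 and 7.56 in DN. It was higher by 0.87 ± 0.13 in AB than in A and 0.75 ± 0.13 in B than in A (adjusted p = 3.79e-05 and 0.000211). Its call in SL against DN (log2 0.39 ± 0.13, adjusted p = 0.0215) was lost without DN3, DN4, SL2 or SL4 (adjusted p 0.053 to 0.0907). Among the 4 planar polarity genes Vangl1, a membrane protein of that pathway, was higher by 0.74 ± 0.11 in SL than in DN and 0.61 ± 0.11 in AB than in A (adjusted p = 1.73e-05 and 0.000214). Daam2, a formin that binds Dishevelled, was higher by 0.68 ± 0.11, 0.58 ± 0.11 and 0.37 ± 0.11 in SL against DN, AB against A and B against A (adjusted p = 6.9e-05, 0.000491 and 0.0173, the last being lost without B2 or B3 at 0.0553 to 0.0761). Vangl2 and Daam1 were called in none of the pairs, although Daam1 was higher in B than in A with replicates 1 and 2 of B alone (log2 0.46, adjusted p = 0.0177).

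**Figure D4:**
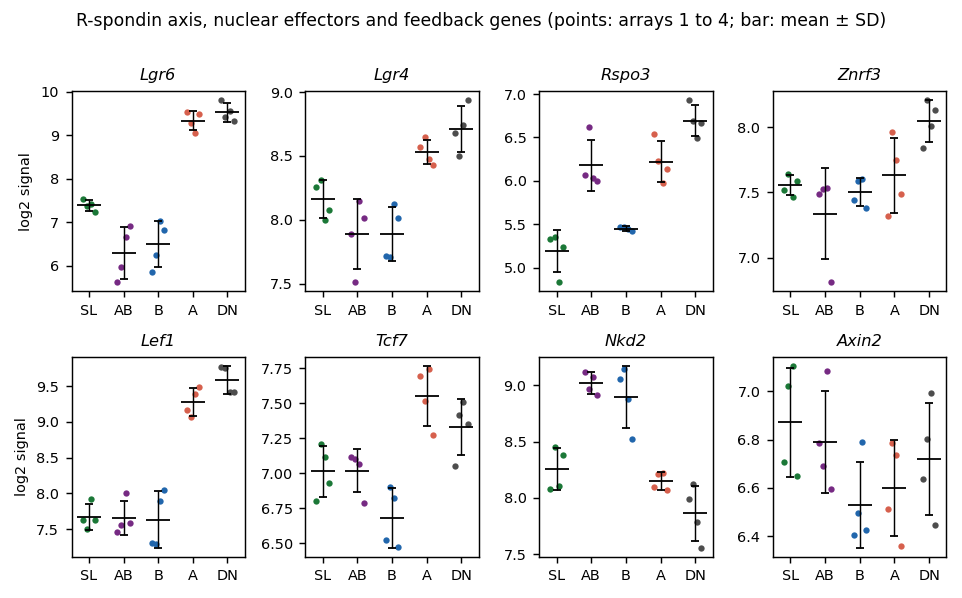
Log2 signal of 4 genes of the R-spondin branch, 2 nuclear effectors and 2 feedback genes in SL, AB, B, A and DN, with 1 point per array (n = 4 a group) and bars for the mean ± SD. Lgr6 and Lef1 are high in A and DN, Rspo3 is lower in B than in AB, and Axin2 overlaps across all groups.

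The comparison of A with DN, which differ in the PDGFRa gate, called 4 members. Dkk3 was higher in A by 0.69 ± 0.14 (adjusted p = 0.00825), a call that no single array ended but that was missed when A and DN were fitted alone (0.0535). Wnt16 was higher by 0.84 ± 0.20 (adjusted p = 0.024, and 0.0501 to 0.0927 without A1, A3, A4, DN1 or DN2). Wnt11 was lower at a log2 difference of -0.67 ± 0.18 (adjusted p = 0.0385, and 0.0502 to 0.115 without A1, A2, A3, AB1, DN1 or DN3). Sfrp4 was higher by 0.84 ± 0.23 (adjusted p = 0.0419), a call that ended without any of A1, A2, A4, AB1, AB2, B3, DN1, DN2, DN3, SL1 or SL2 (0.0516 to 0.148). Fitted on A and DN alone, Wnt16 and Wnt11 were not called (0.0742 and 0.0851), nor was Wnt16 after quantile normalization (0.0808). Marrow stroma markers were higher in A than in DN for 9 of 13 (against 2.89% of all genes), with array means of 8.14 to 8.24 in A and 7.12 to 7.46 in DN, and their part was not tested. Wnt4 and Sfrp2 missed the threshold, Wnt4 at -0.59 ± 0.19 with no overlap of arrays (adjusted p = 0.101, but 0.0393 without AB2 and 0.0439 with replicates 1 and 2 of B and AB alone) and Sfrp2 at 0.72 ± 0.22 (adjusted p = 0.0852, but 0.0327 to 0.0466 without A3 or DN4). With the replicate block Wnt4 and Rspo3 were called lower in A than in DN (adjusted p = 0.0238 and 0.0266). The large falls of Frzb, Lgr6, Fzd9, Lef1, Notum, Sfrp5 and Wif1 seen in other pairs had no called counterpart here, with A minus DN between -0.31 ± 0.17 for Lef1 and -0.08 ± 0.19 for Wif1.

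The pairs SL against DN and AB against A share no arrays, so their calls can be set against each other. Of the members higher in AB than in A 18 of 24 (75.0%) were also higher in SL than in DN, which is 78.3% of the 23 higher in SL. Of the members lower in AB 11 of 14 (78.6%) were also lower in SL, which is 73.3% of the 15 lower in SL. Over all genes the shared calls made up 78.0% of those higher in AB and 57.7% of those higher in SL, and 84.4% and 60.5% of those lower. Opposite calls were found for 0 members, and for 14 of the 2180 genes higher in SL and 18 of the 1942 lower in SL over all genes. Rspo3 and Wnt4 had the largest gaps between the 2 differences, both being far lower in SL than in DN with a small difference in AB. Lrp4 and Fzd5 were higher in AB with a small difference in SL.

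**Figure D5:**
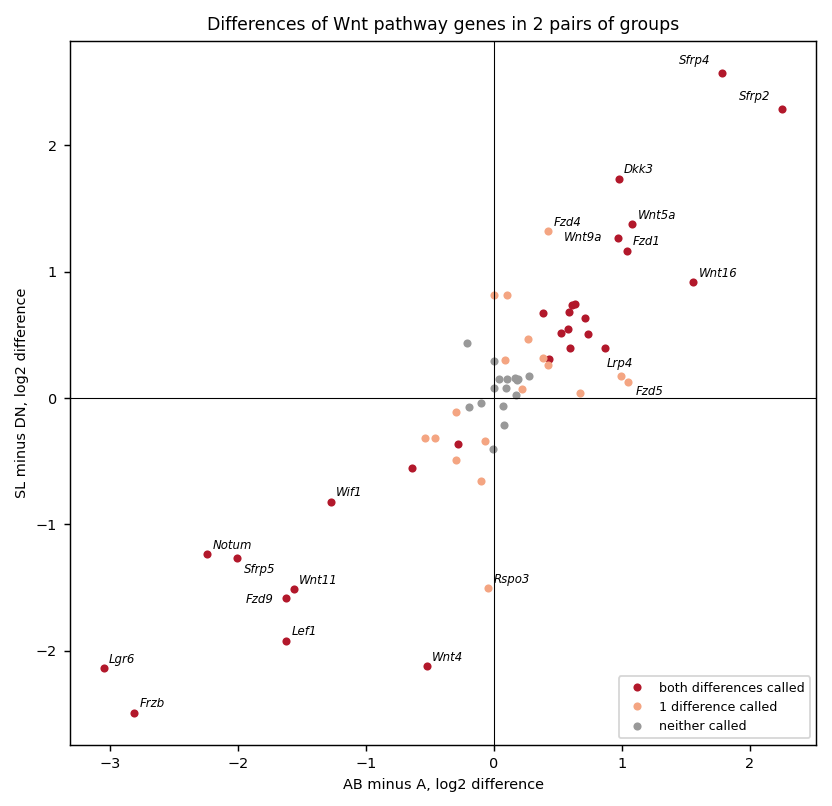
Log2 difference of each of the 63 members for AB minus A (horizontal) and SL minus DN (vertical), 2 pairs with no array in common, coloured by whether limma called both, 1 or neither difference. Sfrp4 and Sfrp2 stand at the upper right, Lgr6 and Frzb at the lower left, and Rspo3 lies near 0 on the horizontal axis and at -1.50 on the vertical one.

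Other genes that act in or around the Wnt pathway, taken from a separate list, were called in both directions. Of 77 measured, 23 were higher and 24 lower in SL than in DN, 20 higher and 26 lower in B than in A, 25 higher and 22 lower in AB than in A, 8 higher and 1 lower in A than in DN, and 4 higher in AB than in B. Over all genes the shares higher and lower were 23.9% and 21.3% in SL, 15.1% and 14.6% in B, 17.7% and 15.2% in AB against A, and 2.89% and 0.635% in A. For AB against B 1.12% were higher. Wisp2, a secreted matricellular protein known as a Wnt target, was higher by 2.52 ± 0.24 in SL than in DN, 2.58 ± 0.24 in AB than in A and 1.42 ± 0.24 in B than in A. Fst, the activin antagonist follistatin, was higher by 2.77 ± 0.19, 2.43 ± 0.19 and 2.66 ± 0.19 in the same pairs. Sox9, the cartilage transcription factor, was lower at log2 differences of -1.95 ± 0.20, -2.38 ± 0.20 and -2.12 ± 0.20, and Tnfrsf11b, which encodes the osteoclast inhibitor osteoprotegerin, at -1.41 ± 0.11, -2.11 ± 0.11 and -1.80 ± 0.11 (adjusted p at most 0.000104 for these 4 genes). Shisa3, a protein that retains Frizzleds inside the cell, was higher in SL than in DN by 2.77 ± 0.29 (adjusted p = 2.25e-07). It was also higher in AB than in B by 2.28 ± 0.29 and in A than in DN by 1.71 ± 0.29 (limma adjusted p = 0.000132 and 0.00185), as was Gpc3, a glypican of the cell surface, in these 2 pairs by 1.17 ± 0.22 and 2.27 ± 0.22 (adjusted p = 0.00577 and 7.73e-06).

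RefSeq promoters were found for 41 of the 63 members, and 7 of them (17.1%) held the Tcf and Lef core letters on either strand within 250 bases before the start, as did 3797 of all 27025 promoters in that table. Among members lower in AB than in A 3 of 11 held the letters, among those higher 1 of 13, and among those not called 3 of 17. A match is a run of 6 letters and not a measured binding site.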

How the data were processed

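Total RNA of 20 sorted samples was measured on 20 1-colour mouse expression arrays, 4 in each of 5 groups. The submitters deposited a table of log2 signals for 24539 probe sets and a table of linear intensity for 12440 of them, filtered and annotated with gene symbols, both normalized by a method not given in the sources used here. Their deposited comparison tables, which per the file headers hold log2 fold changes and q-values, were used for gene coordinates and to compare probe sets. Genes that match the symbols but lie outside the filtered table were not analysed here.

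The intensity values were taken to log2, the probe set with the highest mean was kept for each of 9129 symbols, and all 5 groups were fitted together in limma 3.58.1 (R 4.3.3) with lmFit and eBayes, with Benjamini-Hochberg adjustment over all genes and a threshold of 0.05. No batch is named in the labels. The fit had 15 residual degrees of freedom, and the median residual SD was 0.185. The script was tested on simulated data. Figures and tables used Python 3.11.15, pandas 2.3.3 and matplotlib 3.10.9.

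Same-numbered arrays were taken as paired where the correlation of their residuals was over 0.1 in all 4 replicates, which held for AB and A (r = 0.185, 0.26, 0.389 and 0.398) and for AB and B (r = 0.422, 0.367, 0.17 and 0.361), with residuals taken from group means over genes. It was missed by SL and DN (0.021 to 0.303) and B and A (0.035 to 0.322), all positive, and by A and DN (-0.053 to 0.236). The labels give the numbers but do not say what they mark. The main fit did not use this pairing, so its values for AB against A, AB against B and the interaction are unpaired. The replicate block was run as an alternative.

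The members, the marker lists and the list of other pathway genes were chosen with earlier results of these data known. Members named by rule were, in each pair, up to 12 called in each direction with the largest difference, in each role up to 4 with the largest F statistic, every secreted inhibitor and feedback gene, and every member called in the interaction. Of other pathway genes up to 3 called in each direction and pair were named, and up to 3 genes most like the member with the largest F statistic. Members named outside this rule, such as Apc, Axin1, Gsk3b, Ctnnb1, Lrp5, Lrp6, Fzd2 and Ryk, were chosen after their values were seen. Alternatives were the replicate block, each array left out, B and AB from replicates 1 and 2, each pair's groups alone, quantile normalization, the mean of all probe sets of a gene and an intensity trend with a robust prior. A filter at an intensity of 100 and the omission of every replicate 4 were added after seeing the data. The mean of 14 neutrophil markers was highest on replicate 4 in every group, although the cells were gated against blood lineage markers. It read 9.84 there in DN, 10.15 in A, 10.91 in B, 10.5 in AB and 9.79 in SL. The mean of 4 monocyte and macrophage markers was also highest on replicate 4 in every group. The part of these markers in the calls was not tested.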

Additional observations from a re-analysis of the deposited data

Results flagged for a closer look

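In 16 of 315 sets of 4 arrays, 1 for each member and group, 1 array lay far from the other 3 by Dixon's test, and chance alone flags about 1 in 20. Values are log2 signals, each beside its nearest neighbour in the group. In AB, Rspo3 was high in replicate 2 at 6.617 (6.065), Fzd2 was high in replicate 3 at 9.678 (9.364), Ctnnbip1 was low in replicate 3 at 7.67 (7.934), and Znrf3 and Tcf7 were low in replicate 4 at 6.81 (7.485) and 6.789 (7.065). In B, replicate 4 was low for Wnt16 at 7.843 (8.185), Tcf7l1 at 7.698 (8.268) and Lrp5 at 9.229 (9.724). In SL, Sfrp2 was high in replicate 1 at 9.973 (9.304) and Sfrp4 was low in replicate 3 at 10.273 (10.771). In A, Vangl2 was low in replicate 4 at 6.705 (6.91). In DN, Wnt9a was low in replicate 1 at 6.016 (6.39), replicate 2 was low for Ctnnb1 at 10.059 (10.253) and Ryk at 7.999 (8.346) and high for Lrp4 at 8.524 (7.629), and Lrp5 was low in replicate 4 at 8.421 (8.867).

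The difference of Rspo3 between AB and B was larger than that between A and DN by 1.198 on the log2 scale, by limma's interaction term (adjusted p = 0.0084).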

How the results depend on the processing

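Of 118 called member differences 0 changed direction under any alternative run, and 22 lost their call when 1 array was left out. Fits that used replicates 1 and 2 of B and AB lost 12 of the 118, each pair's groups alone 12 of 117, the omission of every replicate 4 lost 13, quantile normalization 3, an intensity trend 1, and the replicate block and the mean of all probe sets 0. Between A and DN the 4 called members became 6 with the replicate block, 1 with these groups alone and 1 to 5 without 1 array. The 322 genes called there became 546 with the replicate block, 167 with these groups alone, 192 without every replicate 4 and 179 to 341 without 1 array. Between AB and B the 1 called member became 5 with the replicate block, 3 on replicates 1 and 2 of B and AB, 3 without every replicate 4, 0 with the filter at an intensity of 100, which removes Rspo3, and 1 to 3 without 1 array. The 139 genes called there became 321 with the replicate block, 70 with these groups alone, 202 without every replicate 4 and 79 to 194 without 1 array. In the interaction the 1 called member became 3 with the replicate block, which added Wnt4 and Dkk3, 2 on replicates 1 and 2 of B and AB, 2 without every replicate 4, 0 with the filter and 1 to 2 without 1 array, and the 61 genes called became 360 with the block, 156 without every replicate 4 and 24 to 152 without 1 array. Apart from the filter, the cause was not tested. Counts for SL against DN, B against A, AB against A and the F test stayed within 1.5 times under all alternatives, with 35 to 42, 30 to 38, 33 to 39 and 43 to 50 members (3679 to 4169, 2252 to 2791, 2522 to 3080 and 4361 to 4678 genes) without 1 array. The table without the filter on low signal was not run, because no further probe set could be named. Of the 63 members 60 reached an intensity of 100 on all arrays of at least 1 group, and Rspo3, Fzd4 and Csnk1g1 did not, so their differences rest on dim signals. Only 40 members reached it on all 20 arrays, so differences of other members can rest partly on dim signals. The AB arrays of Frzb, the DN arrays of Wnt16 and the SL, AB and B means of Sfrp5 all lay below it.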
